A study of Mus musculus with 48 samples.

Results

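The acetazolamide effect averaged over both limb bud tissues and both times was taken from 24 of the series' 48 arrays, all those of the acetazolamide and oil groups. For each gene it is the mean of 4 differences in log2 ratio, acetazolamide minus oil, in ectoderm at 3 h, mesoderm at 3 h, ectoderm at 12 h and mesoderm at 12 h. The agreement of the 4 differences, by gene, is described with it. Pregnant mice, whose strain the labels do not give, were injected into the peritoneum on gestation day 9.5 with acetazolamide at 400 mg/kg suspended in vegetable oil or with the oil alone. Embryos were collected 3 h or 12 h later, their right forelimb buds were treated with trypsin, and the ectoderm was parted from the mesoderm. Tissue from several litters was combined for RNA, and each of the 8 groups has 3 arrays of the Affymetrix MG-U74Av2 design. The other 24 arrays are from embryos of dams given cadmium sulfate at 4 mg/kg or its vehicle, phosphate-buffered saline (PBS). They enter here in a test between the agents and in the estimate of the spread behind every test, which both arms share. The labels do not say that the arrays of a group came from separate litters, so p-values measure the spread between RNA extracts, which may be partly technical.

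Acetazolamide blocks carbonic anhydrases, the zinc enzymes that interconvert carbon dioxide and bicarbonate, and is used in people as a diuretic and against glaucoma. In pregnant mice it is known for the loss of posterior digits, mostly of the right forelimb, a defect it shares with cadmium. At this stage the bud is a core of mesoderm under a sheet of ectoderm, whose apical ridge keeps the core growing through fibroblast growth factors.

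Each deposited value is a ratio to the vehicle arrays of its own tissue and time, so no expression level was kept. Oil arrays therefore lie around 0 on the log2 scale: arrays 1 and 2 of a group mirror each other and array 3 is 0 for every gene. The identity of the tissues could not be checked against marker genes, because ratios carry no level. Array medians lay between -0.12 and 0.06 in log2 ratio. Ectoderm and mesoderm arrays of the same number and group were averaged before the test, since they may come from the same embryos, giving 6 acetazolamide and 6 oil tissue averages.

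The 5 genes that passed the test for the mean effect are named first. The sequence before the annotated start of a pair of them is given here because each holds a known regulatory motif. RefSeq windows of GRCm38.p6, from 250 bases before to 50 bases after the start, were found for all 5 genes that passed the test, and where a gene has several the first was used (Ahcyl1 has 3 and Sspn 2). The search covered both strands for the E-box CACGTG, the cAMP response element TGACGTCA, the amino acid response element TGATGNAA, the forkhead (FOXO) core GTAAACA and the GC box GGGCGG. The E-box was in the window of D430019H16Rik and the cAMP response element in that of Ahcyl1. Xpr1, Sspn and Lpin1 held none of the first 4 motifs, and 3 of the 5 windows held a GC box. Among the 6577 measured genes with a window, 9.94% held the E-box, 2.87% the cAMP response element, 2.43% the amino acid response element, 2.63% the FOXO core and 59.3% the GC box. Among all 32851 windows the shares were 7.15%, 1.79%, 3.97%, 3.65% and 35.7%. A match is a description of these letters and not evidence of a bound factor. The 250 bases before the start follow, 5′ to 3′ on the gene's strand, with the motif in capitals, for D430019H16Rik on the plus strand at chr12:105453606-105453855 and for Ahcyl1 on the minus strand at chr3:107696561-107696810.
D430019H16Rik: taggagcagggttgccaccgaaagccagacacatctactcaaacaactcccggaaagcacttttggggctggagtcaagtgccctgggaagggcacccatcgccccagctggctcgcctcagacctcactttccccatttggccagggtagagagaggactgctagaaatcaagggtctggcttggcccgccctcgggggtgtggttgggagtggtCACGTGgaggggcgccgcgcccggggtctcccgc
Ahcyl1: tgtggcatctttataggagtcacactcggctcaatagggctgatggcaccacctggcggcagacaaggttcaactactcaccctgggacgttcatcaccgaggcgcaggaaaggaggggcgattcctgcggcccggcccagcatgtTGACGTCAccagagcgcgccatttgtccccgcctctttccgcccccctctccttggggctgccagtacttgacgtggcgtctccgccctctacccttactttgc

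After acetazolamide, averaged over tissues and times, 5 of 8252 genes passed the test (0.0606%), and all 5 rose: D430019H16Rik, Ahcyl1, Xpr1, Sspn and Lpin1. No gene passed the test below 0. The rises of the 5 genes were 1.26-fold to 1.52-fold. At an unadjusted p under 0.05 there were 649 genes above 0 (7.86%) and 311 below 0 (3.77%), and the median gene stood at -0.02. Without 1 of the tissue averages these counts ran from 403 (12 h oil average 1) to 946 (12 h acetazolamide average 2) above 0 and from 129 (12 h oil or acetazolamide average 3) to 732 (3 h oil average 2) below 0, and with arrays centred on their medians they were 786 and 238. The test was limma's on the tissue averages, with Benjamini-Hochberg adjustment over all genes and a threshold of 0.05. Its spread was estimated from the cadmium arm too, and with the acetazolamide arm alone 0 genes passed (limma, smallest adjusted p 0.0994, 919 genes at an unadjusted p under 0.05). The median 95% interval reached 0.17 to either side of a gene's mean effect, and it is not adjusted for the number of genes. Shifts of single genes above 0.17 could therefore go undetected, as smaller ones could. The smallest effect that passed was 0.34 (Lpin1).

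D430019H16Rik, known only by its clone name, rose most evenly of the 5. The acetazolamide arrays read 0.91, 0.73 and 0.24 in 3 h ectoderm, 0.68, 0.58 and 0.51 in 3 h mesoderm, 0.52, 0.73 and 0.37 in 12 h ectoderm, and 0.73, 0.90 and 0.22 in 12 h mesoderm. The oil arrays ran from -0.05 to 0.05 at 3 h in both tissues, from -0.36 to 0.29 in 12 h ectoderm and from -0.17 to 0.15 in 12 h mesoderm. In all 4 comparisons every acetazolamide array lay above every oil array. The 4 single differences were 0.63 ± 0.13, 0.59 ± 0.13, 0.57 ± 0.16 and 0.62 ± 0.13 (SE), and their mean was 0.60 ± 0.08, or 1.52-fold (limma, adjusted p = 0.0153).

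Ahcyl1 encodes IRBIT, a protein that binds the inositol trisphosphate receptor and activates sodium bicarbonate cotransporters. Its acetazolamide arrays read 0.53, 0.58 and 0.91 in 3 h ectoderm, 0.38, 0.57 and 0.76 in 3 h mesoderm, 0.30, 0.40 and 0.55 in 12 h ectoderm, and 0.47, 0.51 and -0.04 in 12 h mesoderm. All oil arrays lay between -0.41 and 0.32. The groups overlapped at 12 h in both tissues, and the third 12 h mesoderm array stood apart from its group at the level of oil. The mean difference was 0.50 ± 0.08, or 1.42-fold (limma, adjusted p = 0.0380), with single differences of 0.68, 0.57, 0.45 and 0.31.

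Xpr1, the gene of the phosphate exporter, had acetazolamide arrays at 0.77, 0.51 and 0.53 in 3 h ectoderm, 0.30, 0.55 and 0.43 in 3 h mesoderm, 0.57, 0.70 and 0.86 in 12 h ectoderm, and 0.23, 0.42 and -0.06 in 12 h mesoderm. Oil arrays lay between -0.25 and 0.21. Only in 12 h mesoderm did the arrays of Xpr1 overlap, again through the third acetazolamide array. Averaged over tissues, the 6 acetazolamide values of Xpr1 were tight, from 0.40 to 0.56. The mean difference was 0.49 ± 0.08, or 1.41-fold (limma, adjusted p = 0.0433).

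Lpin1 encodes lipin 1, which makes diacylglycerol from phosphatidic acid and also acts as a coactivator of transcription. Acetazolamide arrays of Lpin1 read 0.30, 0.35 and 0.19 in 3 h ectoderm, 0.40, 0.23 and 0.19 in 3 h mesoderm, 0.39, 0.64 and 0.40 in 12 h ectoderm, and 0.29, 0.49 and 0.14 in 12 h mesoderm. Oil arrays lay between -0.19 and 0.17. As for D430019H16Rik, every acetazolamide array was above every oil array of its own tissue and time. The mean difference was 0.34 ± 0.05, or 1.26-fold (limma, adjusted p = 0.0380).

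Sspn encodes sarcospan, a membrane protein of the dystrophin complex. Acetazolamide arrays of Sspn read 0.82, 0.54 and 0.08 in 3 h ectoderm, 0.23, 0.54 and 0.71 in 3 h mesoderm, 0.05, 0.25 and 0.29 in 12 h ectoderm, and 0.25, 0.48 and 0.04 in 12 h mesoderm. Oil arrays lay between -0.25 and 0.22. Single arrays of Sspn overlapped in 3 of the 4 comparisons, whereas the 6 acetazolamide tissue averages (0.15 to 0.54) cleared the 6 oil averages (-0.04 to 0.04). The mean difference was 0.36 ± 0.06, or 1.29-fold (limma, adjusted p = 0.0432). Each of the 5 genes is measured by a single probe set.

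**Figure D1:**
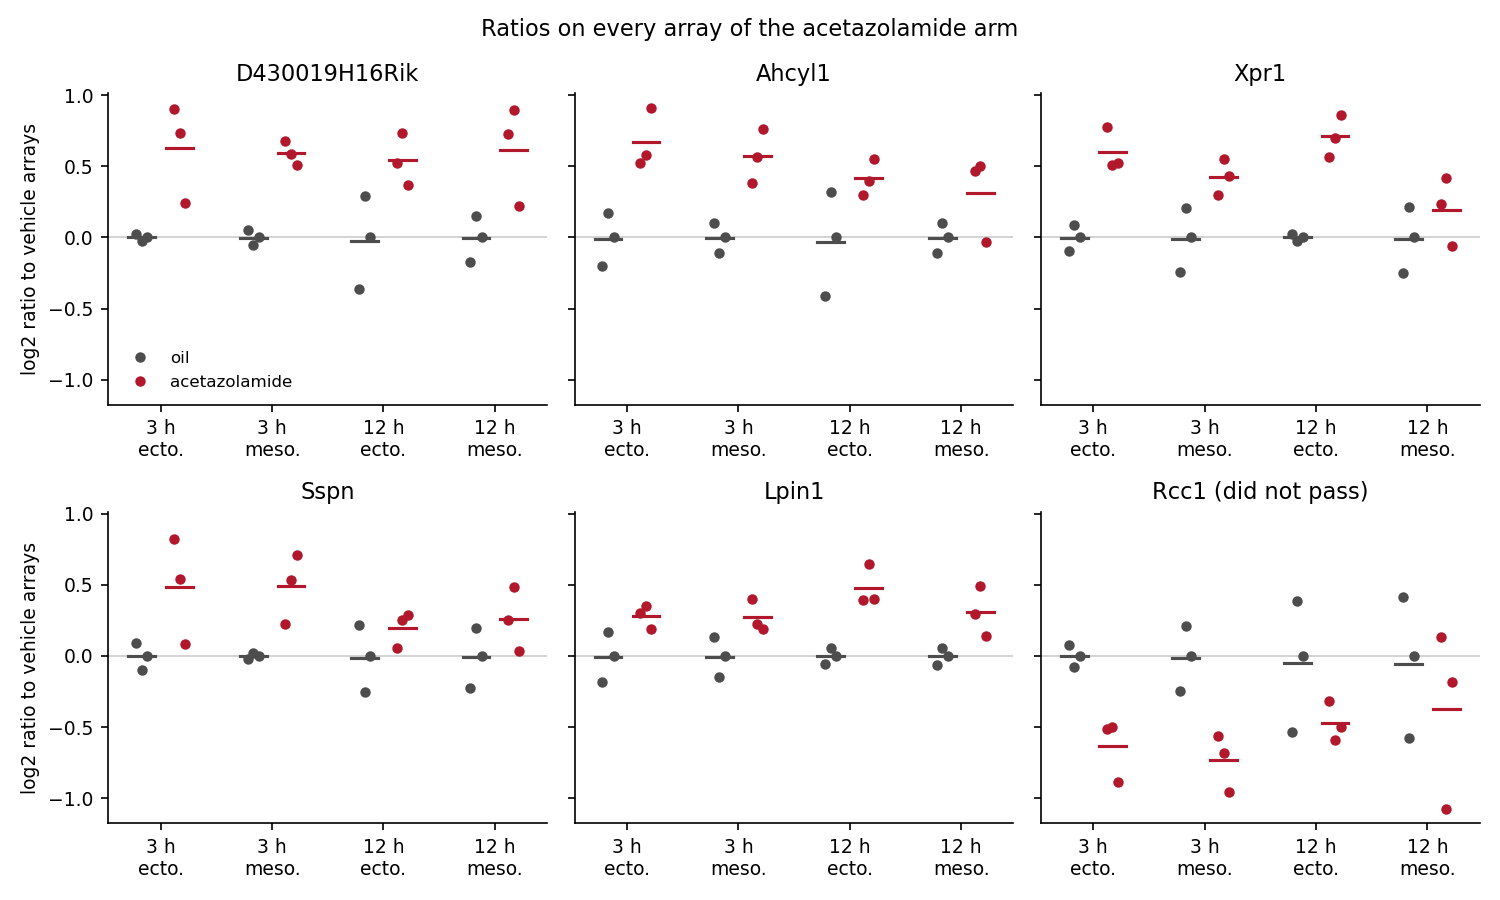
Log2 ratio to vehicle arrays (vertical axis) of the 5 genes that passed the test and of Rcc1, which did not, in each tissue and time (horizontal axis). Each point is an array, grey for oil and red for acetazolamide, and bars are means of 3 arrays. D430019H16Rik and Lpin1 show no overlap in any comparison.

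The calls depended on single tissue averages. The count was 0 without 3 h acetazolamide average 1, 3 h acetazolamide average 2 or 12 h acetazolamide average 2 (limma, with 1170, 651 and 1564 genes at an unadjusted p under 0.05), and 1 (D430019H16Rik) without 12 h oil average 1, 12 h oil average 3 or 12 h acetazolamide average 3. It was 4 without 12 h acetazolamide average 1 (3 higher, 1 lower), 6 without 3 h oil or acetazolamide average 3, 9 without 3 h oil average 1, 42 without 12 h oil average 2 and 57 without 3 h oil average 2. The adjusted p over these 12 fits ran from 0.00570 to 0.0855 for D430019H16Rik, 0.0158 to 0.165 for Ahcyl1, 0.0234 to 0.165 for Xpr1, 0.0330 to 0.165 for Sspn and 0.0234 to 0.165 for Lpin1. All 5 remained above 0 in every fit.

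RNA integrity readings differed between the groups. The 3′ to 5′ log2 ratio of the Gapdh control probe sets was higher by 0.47 in acetazolamide than in oil averages (0.06 to 1.16 against -0.36 to 0.47), and that of actin by 0.32 (0.18 to 0.89 against -0.15 to 0.68). Both were above 0 in all 4 comparisons, 0.41 to 0.59 for Gapdh and 0.23 to 0.52 for actin. The transferrin receptor and pyruvate carboxylase control ratios differed by 0.04 and 0.00. The part of RNA integrity in the results was not tested.

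Among genes that did not pass, the rule for named genes took those of smallest p with all 4 differences of 1 sign. Slc25a36, a mitochondrial nucleotide carrier, had acetazolamide averages of 0.27 to 0.68 against oil averages of -0.23 to 0.19 and a mean difference of 0.48 ± 0.09 (limma, adjusted p = 0.0523). Helb, a DNA helicase, stood at 0.42 ± 0.08 (0.0569; its probe sets gave 0.51 and 0.34), with acetazolamide averages of 0.34 to 0.51 and oil averages of -0.20 to 0.16. Spata13, an exchange factor for small GTPases, stood at 0.49 ± 0.09 (0.0575), with a range of acetazolamide averages from -0.02 to 1.09. Its difference was 0.81 ± 0.12 at 3 h and 0.16 ± 0.14 at 12 h, and the gap between the times did not pass.

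On the low side the leading genes were 8 that did not pass. Rcc1, the nucleotide exchange factor of the Ran GTPase, had acetazolamide averages from -0.92 to -0.09 and oil averages from -0.10 to 0.07. Its mean difference was -0.52 ± 0.10 (limma, adjusted p = 0.0569), and the first 12 h mesoderm array, at 0.13, was its only acetazolamide array above 0. Cfl1, which encodes the actin-severing protein cofilin 1, stood at -0.47 ± 0.10 (0.0741), with averages of -0.82 to -0.17 against -0.32 to 0.24. Tarbp2, a partner of Dicer in microRNA processing, stood at -0.39 ± 0.09 (0.0907) and its 6 acetazolamide averages lay below all oil averages. Tbl3 and Rrp9, both of the complex that processes ribosomal RNA precursors, stood at -0.27 ± 0.06 (0.0920) and -0.37 ± 0.09, neither passing. The remaining leading genes were the mitochondrial chaperone gene Fkbp8 at -0.38 ± 0.09, Plekho1 at -0.36 ± 0.08 and the zinc finger gene Zfp444 at -0.29 ± 0.07, with adjusted p from 0.0907 to 0.0909. Of these 8, Tarbp2, Zfp444 and Tbl3 had tissue averages with no overlap, but the probe sets of Tbl3 gave -0.19 and -0.35.

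**Figure D2:**
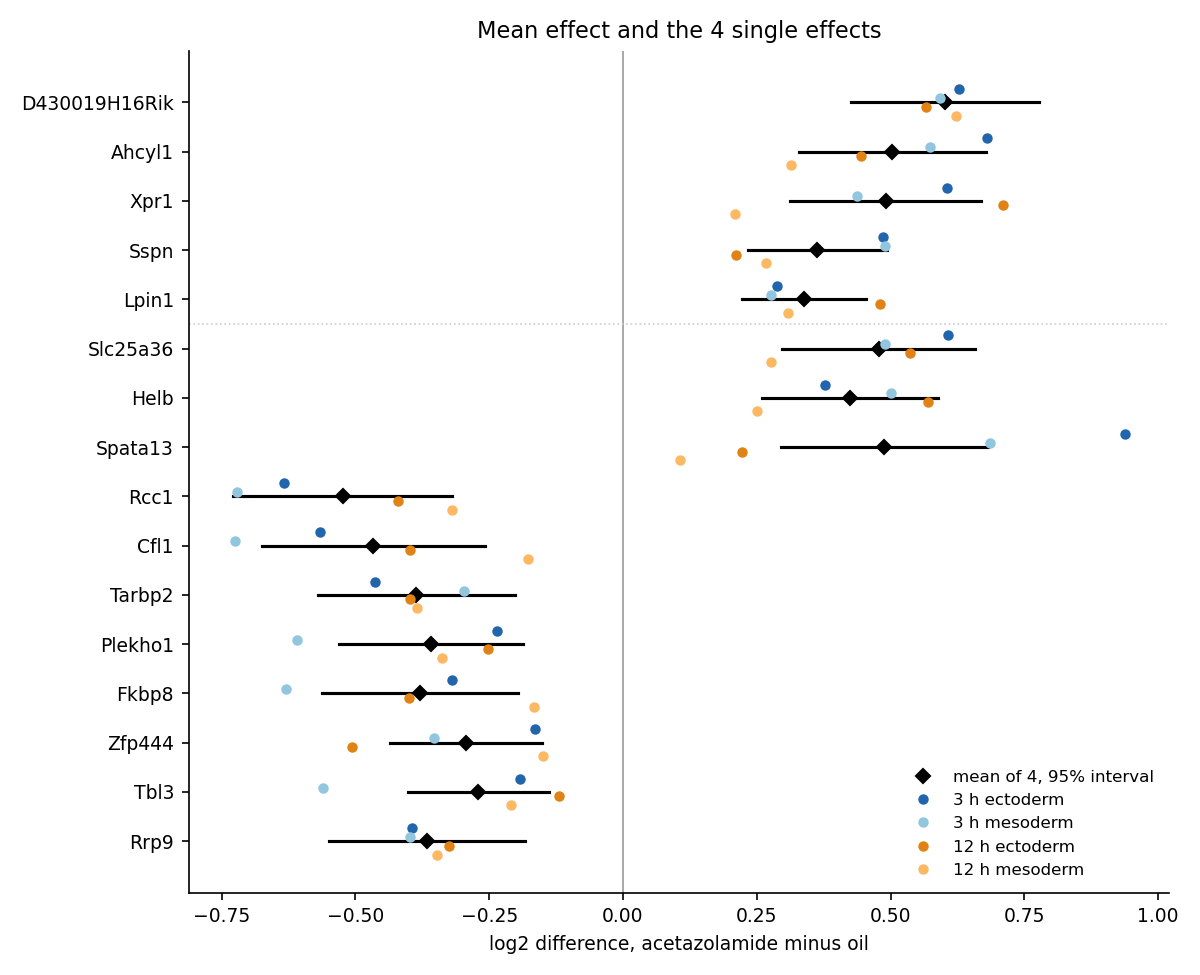
Log2 difference, acetazolamide minus oil (horizontal axis), of the 16 genes leading the mean effect (vertical axis). Diamonds are means of the 4 differences with 95% intervals, and coloured points are the single differences; the 5 genes above the dotted line passed the test.

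All 4 differences were above 0 in 979 genes (11.9%) and below 0 in 1236 (15.0%). Differences of the same sign in 3 of 4 were found in 1682 genes above 0 and 2388 below 0, and 1967 genes were split evenly. With each array centred on its median the counts of genes with all 4 of 1 sign were 1175 above 0 and 873 below 0, so which sign was more frequent depended on the scaling. In the cadmium arm 948 genes had 4 effects above 0 and 657 had 4 below 0. Arrays were fully separate in all 4 acetazolamide comparisons for 6 genes above oil (0.0727%) and for 1 below (0.0121%). Because oil arrays 1 and 2 mirror each other and array 3 is 0, the 3 oil arrays of a comparison are not independent values. Array 3 was also inferred to have a denominator of its own, so overlap and separation are read across unlike denominators. Besides D430019H16Rik and Lpin1, the 6 were Aldh3a2 (0.19 ± 0.05), a fatty aldehyde dehydrogenase, Cmtm8 (0.44 ± 0.09), Ezh1 (0.30 ± 0.10), a histone methyltransferase, and Retreg1 (0.56 ± 0.13), a receptor for autophagy of the endoplasmic reticulum. The gene below oil in every array was Atf5 (-0.33 ± 0.08), a transcription factor of the amino acid stress response. These 5 did not pass for the mean effect (limma, adjusted p from 0.0741 to 0.220), and they are named for this separation after their values were seen. The 6 acetazolamide tissue averages lay above all 6 oil averages in 91 genes (1.1%) and below them in 43 (0.521%).

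**Figure D3:**
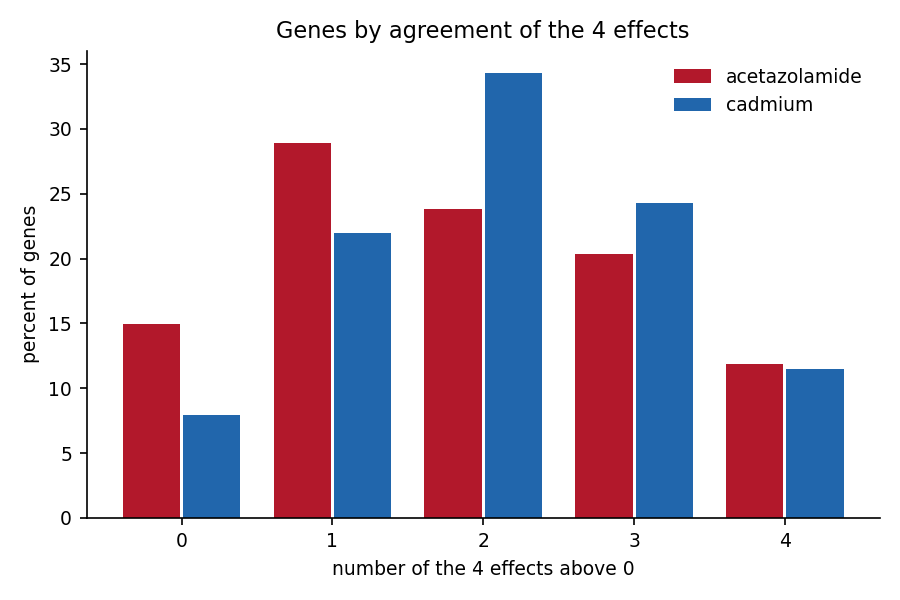
Percent of the 8252 genes (vertical axis) by how many of the 4 differences from vehicle lay above 0 (horizontal axis), red for acetazolamide and blue for cadmium. For acetazolamide 15.0% of genes had none above 0 and 11.9% had all 4.

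Across the 8252 genes, which are not independent replicates, the differences in 3 h ectoderm and 3 h mesoderm correlated at r = 0.52. Those of 3 h ectoderm and 12 h ectoderm correlated at 0.41, and 3 h mesoderm and 12 h ectoderm at 0.38. The 12 h mesoderm correlated at 0.11, 0.07 and 0.18 with 3 h ectoderm, 3 h mesoderm and 12 h ectoderm. The SD of the differences over genes was 0.13 there, against 0.20 to 0.25 in the others, and 46 genes were higher and 19 lower at an unadjusted p under 0.05, against 276 to 468 higher and 181 to 290 lower in the others. Tissues of the same time may share embryos and array number, and all comparisons share the array design. With 12 h mesoderm left out of the mean 20 genes passed, and with 12 h ectoderm, 3 h mesoderm or 3 h ectoderm left out 1, 0 and 1 passed (limma, with 1307, 671, 553 and 770 at an unadjusted p under 0.05).

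Genes picked at 1 time were read at the other, where other arrays and other oil arrays were used. Of 176 genes higher at 3 h at an unadjusted p under 0.01, 158 (89.8%) were above 0 at 12 h, against 47.6% of all genes, and their median there was 0.19 against 0.47 at 3 h. Of 127 genes lower at 3 h, 91 (71.7%) were below 0 at 12 h, against 52.4% of all genes, with a median of -0.06 against -0.37. In the reverse reading, 64 of 77 genes higher at 12 h (83.1%) were above 0 at 3 h, against 38.3% of all genes. Between tissues, which may share embryos, 190 of 207 genes higher in ectoderm (91.8%) were above 0 in mesoderm, against 46.8% of all genes. Their median was 0.46 in ectoderm and 0.19 in mesoderm.

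Whether the 4 differences depart from their mean was tested by 3 contrasts, and none gave a call. Between the times 0 genes passed in limma (0%; 250 at an unadjusted p under 0.05, 3.03%, of which 2.35% were higher and 0.679% lower at 12 h), with a median 95% interval of 0.34 to either side. Cirbp, a cold-inducible RNA-binding protein gene, had the smallest p. Its acetazolamide arrays read 1.79, 0.38 and 1.37 in 3 h ectoderm and 0.87, 0.59 and 1.06 in 3 h mesoderm, and -0.16, -0.09 and -0.78 and then -0.32, -0.09 and 0.05 at 12 h. The difference at 3 h was 1.02 ± 0.18 and at 12 h -0.23 ± 0.21, a gap of -1.26 with a 95% interval of -1.84 to -0.67 (limma, adjusted p = 0.9997). The next were the adaptor gene Limd1 (0.59 ± 0.14, 12 h minus 3 h), Rsrp1 (1.14 ± 0.28), the unfolded protein response factor Xbp1 (0.69 ± 0.19) and Dtx2 (0.59 ± 0.16), none of which passed. Among the 5 genes of the mean effect, Sspn differed most between times, by -0.25 (95% interval -0.51 to 0.01), and D430019H16Rik least, by -0.02 (-0.37 to 0.34).

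For ectoderm against mesoderm limma called 0 genes (0%; 315 at an unadjusted p under 0.05, 3.82%, of which 2.22% were higher and 1.6% lower in ectoderm; median interval 0.28 to either side). Ppp3ca, a catalytic subunit of calcineurin, stood 1.08 ± 0.26 above mesoderm in ectoderm, with differences from oil of 1.20 and 1.17 in ectoderm and 0.10 and 0.12 in mesoderm, and did not pass. Dhx32 (-0.31 ± 0.08), the sodium pump subunit gene Atp1b1 (-0.34 ± 0.09), Crebrf (0.52 ± 0.13) and Stat6 (0.62 ± 0.16) followed without passing. The interaction of time and tissue also gave 0 calls in limma (0%; 411 at an unadjusted p under 0.05, 4.98%, of which 3.17% were above 0 and 1.81% below; median interval 0.56 to either side). The smallest p was that of Bysl, a ribosome biogenesis gene (0.88 ± 0.19), followed by the kynurenine aminotransferase gene Kyat3 (1.06 ± 0.24), Gemin5 (0.99 ± 0.23), Hoxc6 (-1.37 ± 0.33) and the palmitoyltransferase gene Zdhhc5 (1.58 ± 0.39).

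Carbonic anhydrases are the family that the drug targets, and the RNA of no measured member passed the test. Of 9 measured genes of 16 in the list, 4 lay above 0, against 42.1% of all genes, and 0 reached an unadjusted p under 0.05 in either direction. Their mean differences ran from -0.13 (Car2) to 0.13 (Car12), with a median of -0.07. Car12, a membrane enzyme, had acetazolamide averages of 0.01 to 0.22 against oil averages of -0.06 to 0.06 (difference 0.13 ± 0.06), and Car2, the main cytosolic enzyme, had averages of -0.42 to 0.11 against -0.07 to 0.06 (-0.13 ± 0.10). Car1 stood at -0.11 ± 0.08, Car5a at -0.09 ± 0.08, Car6 at -0.08 ± 0.09, Car3 at -0.07 ± 0.09, Car14 at 0.06 ± 0.08, Car8 at 0.03 ± 0.08 and Car4 at 0.00 ± 0.06. Of 23 measured genes of pH and bicarbonate transport, 11 lay above 0 and 2 were higher at an unadjusted p under 0.05 (8.70%, against 7.86% of all genes) and 0 lower, a share near that of all genes. The 2 were the proton pump subunit genes Atp6v1b2 at 0.19 ± 0.07 and Atp6v1d at 0.31 ± 0.13, and without 1 of the tissue averages the count ran from 0 (without average 3 of either time) to 4 (without 3 h oil average 2 or 12 h acetazolamide average 2). Among all genes the number higher ran from 403 to 946 over the same fits, with 946 without 12 h acetazolamide average 2.

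The gene lists that follow held no gene that passed for the mean effect, so each is given by its counts and median. For all genes the median was -0.02, 42.1% lay above 0, and 7.86% were higher and 3.77% lower at an unadjusted p under 0.05. Of 32 measured mitosis genes, 23 lay above 0, with a median of 0.16, and 11 were higher (34.4%) and 0 lower at an unadjusted p under 0.05. All 4 differences were above 0 in 13 of them. The leading members were the spindle protein gene Nusap1 (averages 0.11 to 0.43 against -0.11 to 0.09 in oil; difference 0.25 ± 0.08), the midzone protein gene Prc1 (0.30 ± 0.10), the kinesin gene Kif20a (0.25 ± 0.08) and the checkpoint kinase gene Ttk (0.40 ± 0.13), with limma adjusted p from 0.196 to 0.224. List means of the acetazolamide averages were 0.02, 0.15 and 0.10 at 3 h and 0.25, 0.05 and 0.18 at 12 h, and those of oil -0.08, 0.06 and 0.00 and then -0.15, 0.11 and 0.00. The groups overlapped. The list's medians by comparison were 0.06 in 3 h ectoderm, 0.12 in 3 h mesoderm, 0.26 in 12 h ectoderm and 0.07 in 12 h mesoderm, and with 12 h ectoderm left out the median of the means was 0.10.

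Of 20 measured p53 target genes, 14 lay above 0 with a median of 0.19, and 7 were higher (35.0%, against 7.86% of all genes) and 1 lower (5%, against 3.77%) at an unadjusted p under 0.05. In the cadmium arm the same counts were 7 and 1, with a median of 0.07, where 5.24% of all genes were higher and 5.71% lower. After acetazolamide the list was led by Zmat3 (averages 0.19 to 0.83 against -0.13 to 0.11 in oil; difference 0.43 ± 0.09, limma adjusted p = 0.0809), an RNA-binding protein gene. Apaf1, the scaffold of the apoptosome, stood at 0.51 ± 0.14 (0.133), the repair endonuclease gene Ercc5 at 0.20 ± 0.05 (0.133) and the ribonucleotide reductase subunit gene Rrm2b at 0.38 ± 0.11 (0.149). The 1 member lower at an unadjusted p under 0.05 was Phlda3 (-0.24 ± 0.11), and Ccng1, which encodes cyclin G1, stood at 0.28 ± 0.18. The list mean was 0.07 to 0.20 in the 6 acetazolamide averages and -0.11 to 0.08 in the oil averages, with a small overlap. Its median was 0.11 without 3 h oil or acetazolamide average 3 and 0.23 without 12 h oil average 2. It was 0.11 with 12 h ectoderm left out and 0.18 to 0.25 with any of the other 3 comparisons left out.

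Genes of hypoxia and glycolysis lay above 0 in 22 of 29, with a median of 0.06, and 5 were higher (17.2%, against 7.86% of all genes) and 0 lower at an unadjusted p under 0.05. Pdk1, the kinase that holds pyruvate back from the mitochondrion, had acetazolamide averages of 0.42 to 0.84 against oil averages of -0.28 to 0.23, with a difference of 0.59 ± 0.13 (limma, adjusted p = 0.0826). The Myc antagonist gene Mxi1 stood at 0.52 ± 0.12, the mitophagy gene Bnip3 at 0.65 ± 0.20 and Ndrg1 at 0.79 ± 0.25, all with 4 differences above 0 and none passing. In Ndrg1 the averages ran from -0.18 to 1.64. The list mean was 0.40 in the second 12 h acetazolamide average and -0.06 to 0.21 in the other 5, and without that average the list's median was 0.01.

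Markers of other cell types are read against all genes, of which 42.1% lay above 0 with a median of -0.02. Of 18 endothelial markers 1 lay above 0, with a median of -0.10 and 0 higher and 2 lower (11.1%, against 3.77% of all genes) at an unadjusted p under 0.05: the tight junction gene Cldn5 (-0.27 ± 0.06) and the receptor gene Tie1 (-0.19 ± 0.08). Their list mean was -0.14 to -0.06 in the acetazolamide averages and -0.11 to 0.07 in the oil averages. In bulk RNA fewer cells of a type and less RNA per cell cannot be told apart. Without levels dim probe sets could not be set aside, and their part in the marker lists was not tested. Of 21 macrophage markers 1 lay above 0 (median -0.08), of 19 somite and muscle markers 2 (-0.09), of 19 endoderm markers 2 (-0.08), of 19 red blood cell markers 4 (-0.07) and of 21 neural and neural crest markers 8 (-0.02), the last as in all genes. With arrays centred on their medians the endothelial median was -0.07 and the macrophage median -0.05, that of all genes was 0.00, and that of the neural list turned to just above 0. With 12 h ectoderm left out, 5 endothelial and 6 macrophage markers lay above 0. Limb mesoderm markers had a median of -0.01 (0.01 with centring) and surface ectoderm markers one of 0.00 (0.02 with centring). Of 31 surface ectoderm markers, 16 lay above 0. At an unadjusted p under 0.05, 6 were higher (19.4%, against 7.86% of all genes) and 0 lower, led by the laminin receptor gene Itga6 (0.55 ± 0.13) and the epithelial splicing factor gene Esrp1 (0.31 ± 0.08). Without 1 of the tissue averages 4 to 8 were higher, against 403 to 946 of all genes. The list's median then ran from -0.06 (without 12 h acetazolamide average 2) to 0.06 (without 12 h oil average 3). Itga6 stood at 0.90, 0.71 and 0.58 in the first 3 comparisons and at 0.01 in 12 h mesoderm, and the epithelial transcription factor gene Trp63 at 0.81, 0.24 and 0.94 and at 0.01. Esrp1 stood at 0.33 and 0.72 in ectoderm and at 0.01 and 0.16 in mesoderm.

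**Figure D4:**
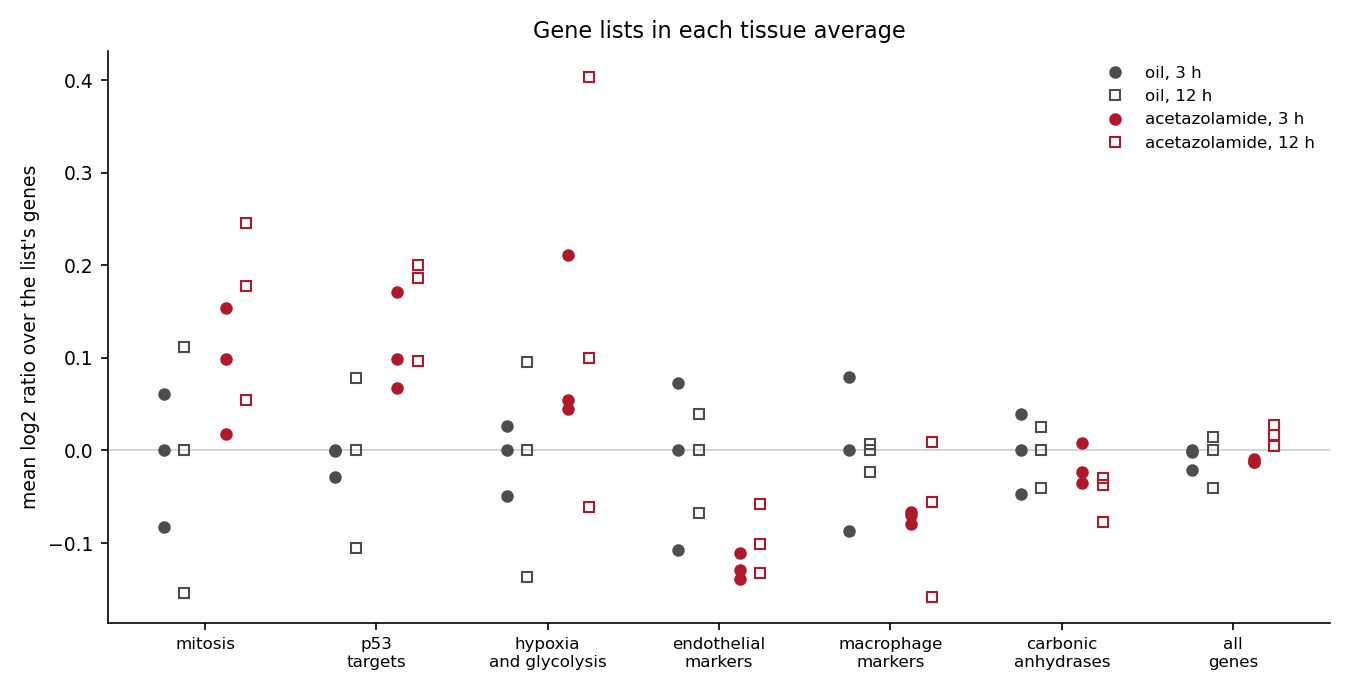
Mean log2 ratio over each list's measured genes (vertical axis) for 6 lists and all genes (horizontal axis). Each symbol is a tissue average, grey for oil and red for acetazolamide, filled at 3 h and open at 12 h. The p53 and mitosis lists lie above 0 and the endothelial list below 0 in all 6 acetazolamide averages, and each overlaps the oil averages.

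Signalling pathways of the limb bud gave 0 calls in limma, and their leading members stood on both sides of 0. In the BMP list of 30 measured genes, 1 was higher (3.33%, against 7.86% of all genes) and 3 lower (10%, against 3.77%) at an unadjusted p under 0.05, with a median of -0.05. Without 1 of the tissue averages the number lower ran from 1 (12 h oil or acetazolamide average 3) to 8 (12 h acetazolamide average 2) in the BMP list, and also from 1 to 8 in the Wnt list, with 8 again without 12 h acetazolamide average 2. The BMP target genes Id3 and Id1 stood at -0.38 ± 0.12 and -0.36 ± 0.14, and Twsg1, an extracellular BMP modulator gene, at 0.35 ± 0.14. Id3 averages were -0.93 to 0.00 after acetazolamide and -0.34 to 0.26 in oil. In the Wnt list of 38, 3 were higher and 3 lower, 7.89% each (median -0.04): the secreted antagonist genes Frzb (0.34 ± 0.09) and Sfrp2 (0.28 ± 0.07) lay above 0 in all 4 comparisons, and the antagonist gene Dkk1 (-0.38 ± 0.11) lay below 0 in all 4, at -0.81 and -0.55 at 3 h and -0.02 and -0.14 at 12 h. Of 13 hedgehog genes 3 lay above 0 (median -0.05). At an unadjusted p under 0.05, 1 was higher and 1 lower (7.69% each, against 7.86% and 3.77% of all genes). They were the hedgehog co-receptor gene Gas1 at 0.28 ± 0.10 and the transcription factor gene Hand2 at -0.19 ± 0.08. The ligand gene Shh stood at -0.10 ± 0.07. Of 17 FGF genes 8 lay above 0 (median -0.01, and 0.01 with centring), with 2 higher (11.8%) and 1 lower (5.88%) at that p. The ridge ligand gene Fgf8 stood at 0.17 ± 0.16. Of 31 Hox genes 7 lay above 0 (median -0.06), with 3 higher (9.68%) and 1 lower (3.23%) at that p, shares near those of all genes.

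The mean acetazolamide effect differed from the mean cadmium effect in 38 genes (0.46%), 32 higher and 6 lower in acetazolamide (0.388% and 0.0727%; 1357 at an unadjusted p under 0.05, 16.4%). In all 38 the estimated effects of the agents had opposite signs, each against its own vehicle, so the difference is larger than either effect. The effect was larger in size after acetazolamide in 20 of them. A test of the difference favours opposite signs and does not show that both effects differ from 0. After cadmium Xpr1 stood at -0.06 ± 0.07, Sspn at -0.07 ± 0.05 and Ahcyl1 at -0.12 ± 0.07. After acetazolamide Zfp105 stood at 0.07 ± 0.08 and Mettl18 at 0.09 ± 0.07. Of the 38, 3 also passed for the mean acetazolamide effect (Ahcyl1, Sspn and Xpr1) and 10 for the mean cadmium effect, in which 30 genes passed (0.364%; 5 rose and 25 fell, with 5.24% higher and 5.71% lower at an unadjusted p under 0.05). Ogt, the enzyme that adds N-acetylglucosamine to proteins, led with a difference of 1.03 ± 0.14 (limma, adjusted p = 0.0162): it stood at 0.35 ± 0.11 after acetazolamide and at -0.68 ± 0.09 after cadmium. Tbc1d14, a regulator of autophagy, differed by 0.48 ± 0.07 (0.0193), Cfl1 by -0.82 ± 0.13 (0.0283), Slc25a36 by 0.67 ± 0.11 (0.0329) and the centriole gene Rttn by 0.61 ± 0.10 (0.0329). Members of the lists were among the 38: the mitosis gene Anln stood at 0.19 ± 0.08 after acetazolamide and -0.35 ± 0.07 after cadmium. The p53 targets Sesn1 and Phlda3, of a list with 3 members higher and 4 lower in acetazolamide than in cadmium at an unadjusted p under 0.05, stood at 0.35 ± 0.10 and -0.24 ± 0.11 after acetazolamide against -0.30 ± 0.09 and 0.46 ± 0.10 after cadmium. The metallothionein gene Mt2 stood at 0.24 ± 0.17 and -0.87 ± 0.15. Of the 32 mitosis genes, 17 were higher in acetazolamide than in cadmium at an unadjusted p under 0.05 and 0 lower, against 10.2% and 6.23% of all genes, and their median mean effect in cadmium was -0.10. The Gapdh and actin 3′ to 5′ log2 ratios differed between treated and vehicle averages by 0.08 (-0.25 to 0.49 over the comparisons) and -0.06 in the cadmium arm, against 0.47 and 0.32 in the acetazolamide arm, and their part in this difference was not tested. The count of 38 was 0 without 12 h oil or acetazolamide average 3 or 12 h PBS or cadmium average 3 (limma, with 885 and 779 genes at an unadjusted p under 0.05). It was 26 and 45 without 12 h acetazolamide average 2 and 12 h cadmium average 1. It was 86, 89, 116, 159 and 182 without 3 h oil average 2, 12 h cadmium average 2, 12 h PBS average 1, 3 h acetazolamide average 1 and 12 h oil average 2, and 1 to 10 without any other average.

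**Figure D5:**
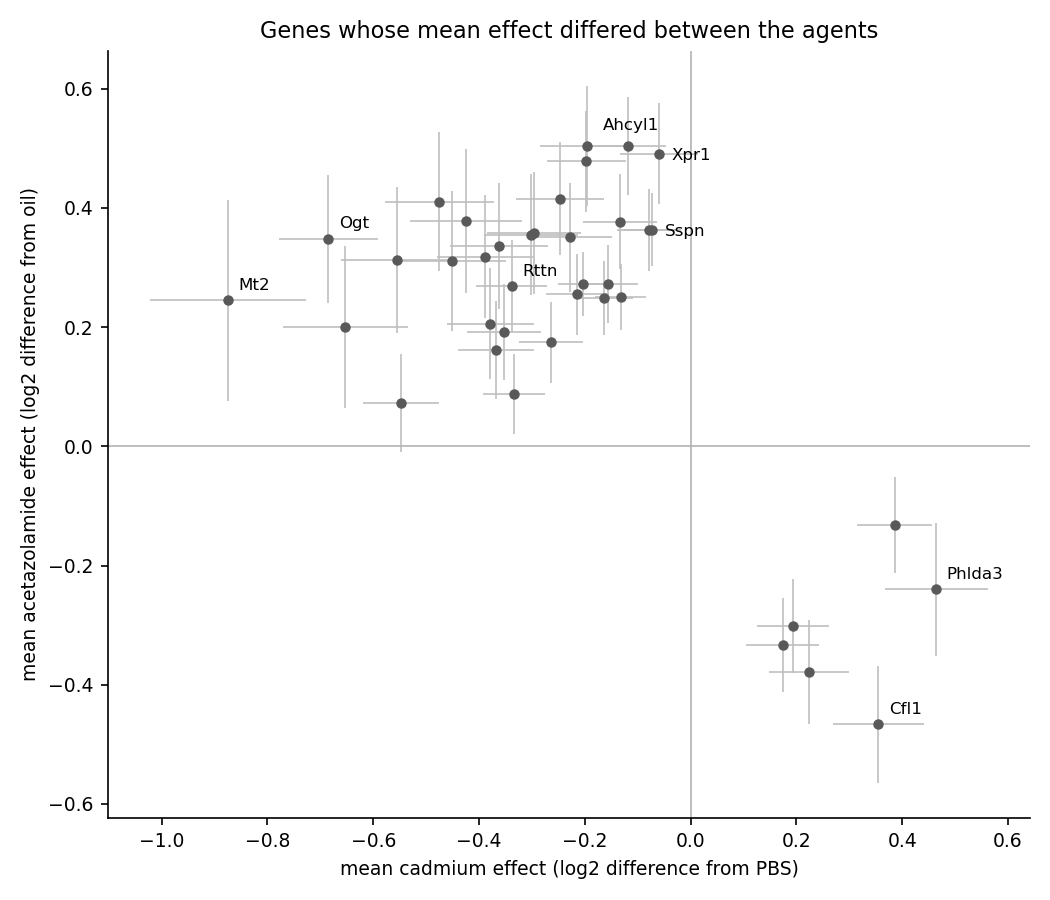
Mean acetazolamide effect (vertical axis, log2 difference from oil) against mean cadmium effect (horizontal axis, log2 difference from PBS) for the 38 genes that differed between the agents, with SE bars. All points lie in the quadrants of opposite sign, 32 at upper left and 6 at lower right.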

How the data were processed

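Per the labels, RNA of limb bud ectoderm and mesoderm was hybridised to Affymetrix arrays. The deposited values are a ratio to vehicle arrays; how the authors made it is not given in the sources used here. Vehicle arrays 1 and 2 of a comparison sum to 2 and array 3 is 1, so treated arrays were taken to share these denominators by number, an inference that the model's block rests on. No filter on dim probe sets was possible. Of 12488 probe sets, 10855 named 1 gene and were averaged into 8252 genes; the other 1633, tested alone, gave 0 calls in limma (121 at an unadjusted p under 0.05).

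Log2 ratios of ectoderm and mesoderm were averaged by number, because both tissues were parted from the same buds per the labels, so arrays may share embryos; whether a number marks a shared pool is not stated. Same-numbered arrays deviated together in the acetazolamide arm (r 0.13 to 0.57) and not in the cadmium arm (-0.31 to 0.09), which was averaged the same way. limma 3.58.1 in R 4.3.3 was fitted to 24 averages of both arms with the denominator block and 1 weight per time and arm (12 residual degrees of freedom); tissue contrasts used the differences. Single differences came from all 48 arrays. Named were up to 12 genes per direction that passed with all 4 differences of 1 sign, made up to 8 by smallest p, called list members, the 5 of smallest p per other contrast, all carbonic anhydrases and up to 4 members per list; Ccng1, Shh, Fgf8, Sesn1, Phlda3, Anln, Mt2, the genes separate in all 4 comparisons and those of the closing section outside the rule were chosen after their values were seen. Members and lists were chosen with earlier results of these data known, motifs after the values were seen. The script was tested on simulated data. Alternatives are listed in the closing section.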

Additional observations from a re-analysis of the deposited data

How the results depend on the processing

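The count of 5 genes for the mean effect was 61 with the 48 arrays as independent samples (59 higher, 2 lower), 35 without weights, 65 without the denominator block, 16 with a replicate block in its place, 13 with arrays centred on the median and 27 without the 25% of genes most variable between vehicle arrays 1 and 2; all 5 genes passed in each. It was 0 with only the acetazolamide arm (smallest adjusted p 0.0994, 919 at an unadjusted p under 0.05), 0 in ectoderm (920) or at 12 h (342) only, 1 in mesoderm only and 12 at 3 h only. Added after the data were seen, leaving out 12 h mesoderm, 12 h ectoderm, 3 h mesoderm or 3 h ectoderm gave 20, 1, 0 (553) and 1; it stayed at 5 with robust eBayes, also added, and with the median over probe sets, and was 6 without suffixed probe sets. The difference between agents (38) became 62 with 48 arrays, 9 without weights, 94 without the denominator block, 2 with the replicate block, 14 with centring, 63 without the variable genes and 15 with robust eBayes. Leaving out 1 tissue average gave 0 to 57 for the mean effect, 0 to 182 between agents, 0 to 2 for the interaction and 1491 to 3294 genes with all 4 differences of 1 sign (2215). Counts between times and tissues were 0 throughout, and none of the leading genes of the mean effect or of the agents' difference changed sign. Treated and vehicle averages of the same number deviated together at 3 h (r 0.43) but not at 12 h (-0.34), so the numbers were not taken to pair them. Residual degrees of freedom, unstated denominators and RNA integrity limit these results, and the cause of the changes was not tested.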

Other observations

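Genes outside the lists above were taken from the fit that treats the 48 arrays as independent samples, in which 61 genes passed for the mean effect. The genes are named after their values were seen. Ectoderm and mesoderm arrays of the same number deviated together in the acetazolamide arm, so the p-values of that fit may be too small. None of the genes named here passed on tissue averages. Foxo3, a forkhead transcription factor of starvation and stress, stood at 0.58 in the mean effect (limma, adjusted p = 0.0228 in that fit and 0.0741 on tissue averages). The antiproliferative gene Btg1 stood at 0.56 (0.0228, and not passing on tissue averages), the Src family kinase gene Fyn at 0.44 (0.0272 and 0.0826) and Ndrg2 at 0.63 (0.0178 and 0.0741). Gpc3, the gene of a heparan sulfate proteoglycan of the cell surface, stood at 0.42 (0.0324 and 0.12). The 2 genes that passed below 0 there were B3galt6, a galactosyltransferase of proteoglycan linkers, at -0.34 (0.0351 and 0.133) and Tarbp2 at -0.39 (0.0455 and 0.0907).

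Amino acid stress genes held members on both sides (median -0.02, and 0.01 with arrays centred). Of 43 measured, 5 were higher (11.6%, against 7.86% of all genes) and 3 lower (6.98%, against 3.77%) at an unadjusted p under 0.05. Without 1 of the tissue averages these counts ran from 3 to 6 and from 2 to 5, where those of all genes ran from 403 to 946 and from 129 to 732. The amino acid transporter gene Slc6a15 stood at 0.36 ± 0.08 and the transfer RNA synthetase genes Lars and Eprs at 0.33 ± 0.10 and 0.31 ± 0.10, while the synthetase genes Aars and Wars stood at -0.24 ± 0.09 and -0.15 ± 0.06. In the unfolded protein response list, 4 of 33 were higher (12.1%) and 3 lower (9.09%) at that p. Without 1 average the counts were 2 to 6 and 2 to 5, in the same fits as the all-gene ranges just given. The sensor genes Atf6 and Eif2ak3 stood at 0.24 ± 0.06 and 0.23 ± 0.09 and the chaperone-related gene Creld2 at -0.37 ± 0.12. None of these genes passed in limma (adjusted p from 0.0884 to 0.334).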
